A study of Mus musculus with 2 samples.

Results

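Genes of glutathione conjugation and oxidative defence, 10 in number, were followed through the cells of mouse liver tumours: the transferases Gsta1, Gsta2, Gsta3, Gsta4 and Gstm1, and the NRF2 targets Nqo1, Gclc, Gclm, Srxn1 and Txnrd1. They are 10 of the 32285 features counted, and all 10 were present in both matrices. They were chosen by name with earlier results of these data known, so shares over all genes stand beside their counts as description only. Tumours came from livers of Crtc2+/+ and Crtc2-/- mice, with 1 single-cell library per genotype. The product of Crtc2 works as a CREB coactivator. Both groups had received the liver carcinogen diethylnitrosamine (DEN, 25 mg/kg, intraperitoneally) at 2 weeks of age and a NASH diet, which brings on non-alcoholic steatohepatitis, from week 8 to week 26, so no untreated liver was compared. The sources used here give neither the number of animals or tumours behind a library nor the cells in which Crtc2 was deleted. With 1 library per genotype no test was possible: each difference describes 2 libraries, and genotype cannot be told apart from the animal or tumour sampled.

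NRF2, encoded by Nfe2l2, is the transcription factor that answers oxidants and electrophiles. In resting cells KEAP1 hands it to a CUL3 ubiquitin ligase for degradation, and BACH1 competes with it at the antioxidant response elements of its target genes. Glutathione transferases join glutathione to reactive compounds and drug metabolites, chiefly in hepatocytes. GCLC and GCLM are the catalytic and modifier subunits of the ligase that limits glutathione synthesis, NQO1 reduces quinones, SRXN1 repairs overoxidised peroxiredoxins and TXNRD1 regenerates thioredoxin.

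Cells were classed by their own UMIs (unique molecular identifiers, each standing for 1 captured transcript). Hepatocytes had at least 20 UMIs of Alb, Apoa1 and Ttr together, and were keratin-high with at least 4 UMIs of Krt8 and Krt18, otherwise keratin-low. Macrophages had at least 20 UMIs of C1qa, C1qb and C1qc, and were Kupffer-type with at least 3 UMIs of Cd5l, Vsig4 and Clec4f. Monocytes had at least 1 UMI each of Ly6c2 and Ccr2, endothelial cells at least 3 of Ptprb and Stab2, and T cells at least 2 of Cd3d, Cd3e and Cd3g. In the Crtc2+/+ library these rules gave 165 keratin-high and 73 keratin-low hepatocytes, 32 Kupffer-type and 4837 other macrophages, 377 monocytes, 202 endothelial cells and 1663 T cells. In the Crtc2-/- library they gave 140, 62, 397, 1076, 720, 506 and 2405 cells in the same order. Cells that met the rules of more than 1 lineage, 307 and 364 in number, were set apart. Near the limits lay 22 and 14 hepatocytes with 3 or 4 keratin UMIs, and 13 and 84 macrophages with 2 or 3 UMIs of the Kupffer genes.

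Of the 10 genes 4 lie together on chromosome 9. In GRCm38 with GENCODE release M21, Gsta1 spans chr9:78230656-78242684 on the plus strand, Gsta2 chr9:78331018-78355788 on the minus strand, Gsta4 chr9:78182774-78209349 and Gclc chr9:77754535-77794485, both on the plus strand. Gsta3 lies at chr1:21240589-21265661 (plus), Gstm1 at chr3:108012255-108017973 (minus), Gclm at chr3:122245557-122270732 (plus), Nqo1 at chr8:107388225-107403206 (minus), Srxn1 at chr2:152105516-152111376 (plus) and Txnrd1 at chr10:82833951-82897712 (plus). Gstm1 and Gclm share chromosome 3 with Crtc2, 17.8 and 32.0 Mb from it. Gsta3, Gclm and Txnrd1 overlap other annotated genes, and the sources used here do not say whether counting used strand.

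Gsta1 and Gsta2 are near copies, and their upstream sequences are shown because both differed most between the libraries and their reads may be divided between them. The last 300 bases of their longest coding transcripts were 94.3% identical, which is where 3' reads fall, so the value of each gene alone is uncertain. Over the 150 bases before each RefSeq start (GRCm38.p6), 124 of 155 aligned positions were identical, or 80.0%. Capitals mark bases that did not match the other gene.
Gsta1, chr9:78230519-78230668, plus strand: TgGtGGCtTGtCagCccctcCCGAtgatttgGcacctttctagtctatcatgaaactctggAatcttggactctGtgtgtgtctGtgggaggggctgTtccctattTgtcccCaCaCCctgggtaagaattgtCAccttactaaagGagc
Gsta2, chr9:78347146-78347295, minus strand: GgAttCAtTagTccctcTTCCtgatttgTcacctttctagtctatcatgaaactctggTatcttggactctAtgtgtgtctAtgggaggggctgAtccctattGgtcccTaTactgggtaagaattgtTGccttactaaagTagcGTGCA

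The antioxidant response element core TGACNNNGC was searched on both strands of RefSeq promoter windows, 250 bases before to 50 after each start. Of the 10 genes 8 had an entry, with 11 windows in all, and 4 genes (Gsta3, Gclm, Srxn1 and Txnrd1) held a match. Over all promoters of that length, 12.4% of 32851 windows and 13.99% of 27025 genes held one. Gsta1, Gsta2, Gstm1 and Nqo1 had no match, which says only that these letters are not in this window. The Txnrd1 match lies in the window chr10:82858956-82859255, before a start inside the span of the gene, and its other windows held none. The matches of Gsta3, Gclm and Txnrd1 lie before the start of their window and are shown with 30 bases each, the match in capitals.
Gsta3, chr1:21240454-21240483, plus strand: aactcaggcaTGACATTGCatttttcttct
Gclm, chr3:122245413-122245442, plus strand, reverse match: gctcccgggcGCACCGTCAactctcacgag
Txnrd1, chr10:82859104-82859133, plus strand, reverse match: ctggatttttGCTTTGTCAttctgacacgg

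The Crtc2+/+ library held 9707 barcodes and 81487425 UMIs and the Crtc2-/- library 9242 barcodes and 78040008 UMIs, with median depths of 7195 and 6688 UMIs. After filters and doublet calls 9349 and 8901 cells were kept, and 29 barcode sequences occurred in both libraries. Crtc2 itself stood at 7.96 and 5.43 CPM (UMIs per 1000000 UMIs of the class) over all kept cells, a ratio of 0.683 with a 95% interval of 0.600 to 0.775. The labels do not say what the deletion removed, and 3' tags outside it check nothing. All intervals below are 95% intervals and cover counting error only.

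Each of the 10 genes had its highest level in 1 of the hepatocyte classes in both libraries. Gstm1 stood at 4858 CPM in keratin-high and 21730.2 CPM in keratin-low hepatocytes of the Crtc2+/+ library, and at 3360.1 and 3123 CPM in those of the Crtc2-/- library. In the other 5 classes Gstm1 lay between 5.85 and 81.2 CPM. Gsta1, Gsta2, Gsta3, Gsta4 and Nqo1 were at or below 5.94 CPM in every class outside hepatocytes. Gclc, Gclm and Txnrd1 had levels of 21.5 to 115 CPM in macrophages, monocytes, endothelial cells and T cells, so these 3 genes were counted in every class, while Srxn1 lay between 1.21 and 9.44 CPM there.

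**Figure D1:**
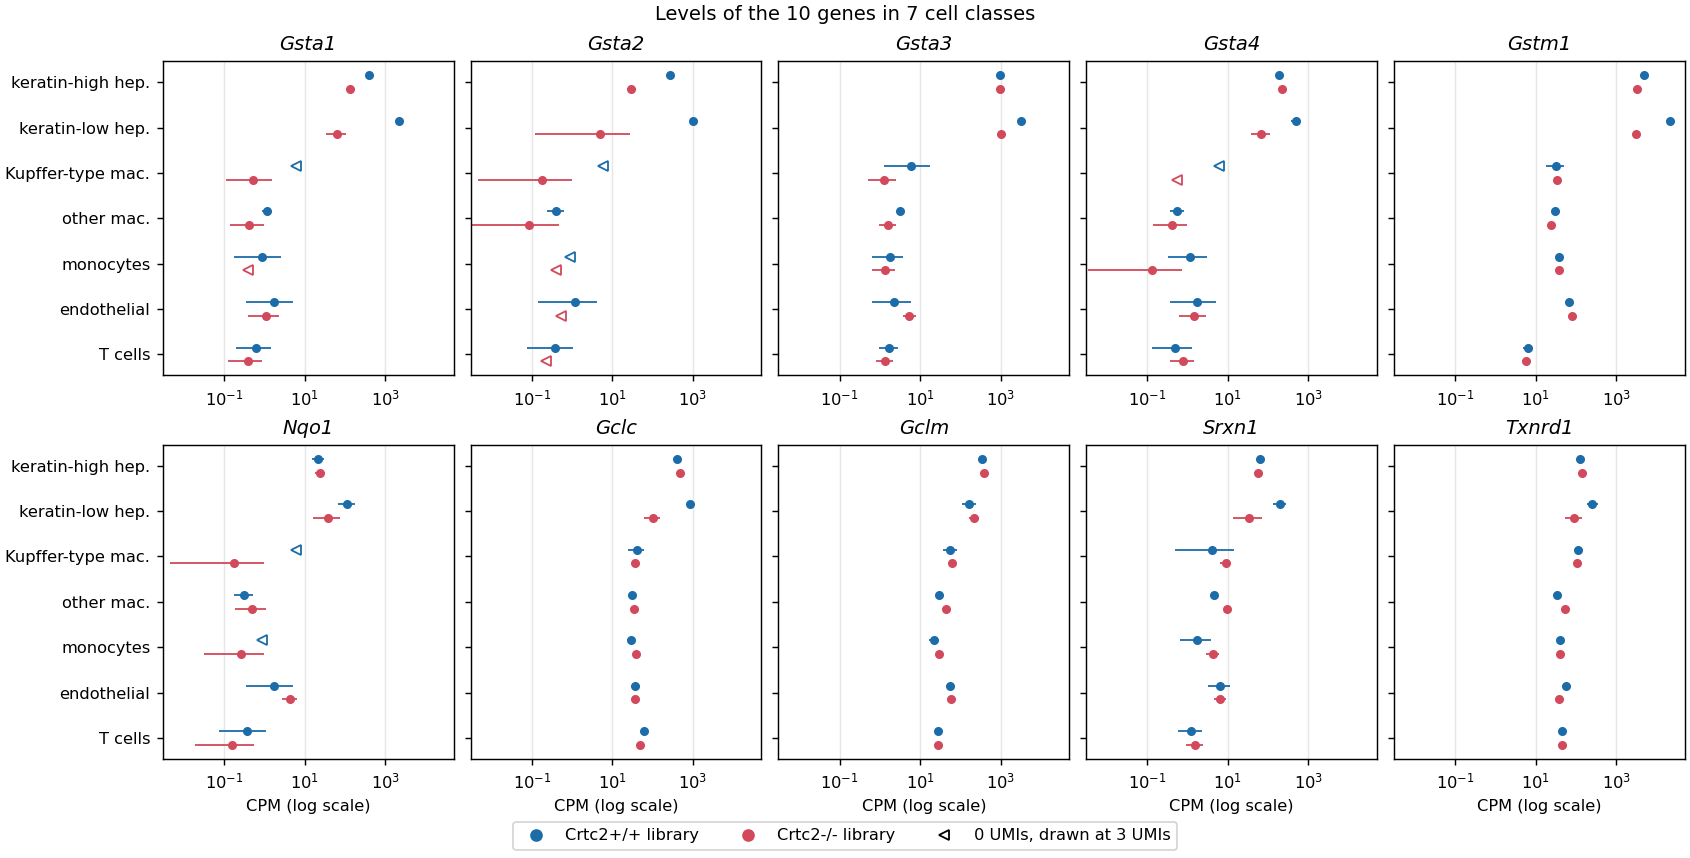
Level of each gene (CPM, log axis) in 7 cell classes of the Crtc2+/+ and Crtc2-/- libraries, with exact 95% Poisson intervals, open triangles marking classes with 0 UMIs drawn at the level of 3 UMIs. The 5 transferases and Nqo1 stand above the other classes in hepatocytes, apart from Gsta2 in keratin-low Crtc2-/- cells (4.78 CPM from 1 UMI), while Gclc, Gclm and Txnrd1 are counted at 21.5 CPM or more in all 7 classes.

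Among keratin-low hepatocytes, 9 of the 10 genes were at least 2-fold lower in the Crtc2-/- library and none was higher. Over all 2808 genes measured in these cells 13.1% were at least 2-fold lower and 31.3% at least 2-fold higher. The median log2 ratio of Crtc2-/- over Crtc2+/+ was -2.47 for the 10 genes and 0.24 for all genes, on log2(CPM + 10). A call here means a log2 ratio of at least 1 in size and is a description of 2 libraries. Alb, Apoa1 and Ttr made up under 1% of the UMIs in 5 of 73 Crtc2+/+ and 10 of 62 Crtc2-/- cells. In those 10 cells the summed Gstm1 level was 292 CPM, against 5226 CPM in the other 52 Crtc2-/- cells. In the 5 Crtc2+/+ cells it was 14073 CPM, against 22718 CPM in the other 68. The class sums hold both kinds of cell.

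The alpha class transferases Gsta1 and Gsta2 differed most. Gsta1 stood at 2236 CPM (2008 to 2484, from 349 UMIs) in keratin-low Crtc2+/+ hepatocytes and at 62.2 CPM (33.1 to 106, from 13 UMIs) in keratin-low Crtc2-/- hepatocytes, 36.0-fold lower (20.8 to 68.2). Gsta2 stood at 1025 CPM (160 UMIs) and 4.78 CPM (1 UMI), a ratio of 0.00466 with an interval of 0.000117 to 0.0264. The intervals of the 2 libraries lay apart for both genes. Thinned to 1000 UMIs per cell, 60.0% of keratin-low Crtc2+/+ cells (45.9 to 73.0) and 14.3% of Crtc2-/- cells (6.38 to 26.2, exact binomial) held a Gsta1 UMI, after 18 and 6 shallower cells were left out. Unthinned, the shares were 69.9% and 17.7%. In T cells, which should lack the gene, the thinned shares were 0.121% and 0.0832%, at median depths of 4451 and 4580 UMIs.

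Gsta3 and Gsta4, the other alpha class members, were lower too. Gsta3 had 3287 CPM (3009 to 3585) and 1014 CPM (882 to 1160.0), 3.24-fold lower in the Crtc2-/- library (2.76 to 3.82). Gsta4, whose enzyme acts on the lipid peroxidation product 4-hydroxynonenal, had 481 CPM (378 to 602) and 67.0 CPM (36.6 to 112). The mu class gene Gstm1 had 21730.2 CPM (21005 to 22474) and 3123 CPM (2888 to 3372), 6.96-fold lower (6.40 to 7.58). All 5 transferases were thus lower in keratin-low Crtc2-/- cells, with intervals that did not meet.

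Of the 5 NRF2 targets 4 were lower by at least 2-fold in keratin-low cells. Gclc had 859 CPM (719 to 1017) and 100.4 CPM (62.2 to 154), 8.55-fold lower. Of its 134 Crtc2+/+ UMIs 1 cell held 44, and without that cell the Crtc2+/+ level was 607 CPM. Another 41 lay in the 5 Crtc2+/+ cells with under 1% of UMIs from Alb, Apoa1 and Ttr, so few cells held much of the sum. Srxn1 had 199 CPM (135 to 282) and 33.5 CPM (13.5 to 69.0). Txnrd1 had 256 CPM (183 to 349) and 90.9 CPM (54.7 to 142). Nqo1 rested on 18 and 8 UMIs, at 115 CPM (68.4 to 182) and 38.3 CPM (16.5 to 75.4), so that its intervals overlapped. Gclm alone among the 10 was not lower, with 167 CPM (109 to 244) and 220.0 CPM (161 to 293), a ratio of 1.32 whose interval of 0.799 to 2.23 spans 1. The 2 subunit genes of glutamate-cysteine ligase therefore stood apart by summed CPM in these cells.

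Keratin-low cells of the 2 libraries also differed in depth and mitochondrial share: median UMIs were 1724 and 2282, and median mitochondrial shares 8.29% and 0.682%. The 6 genes of a dissociation and stress list summed to 179 CPM in Crtc2+/+ and 407 CPM in Crtc2-/- keratin-low cells. The median share of UMIs from Alb, Apoa1 and Ttr was 5.10% and 2.91%. Of other cell types' markers, those of monocytes summed to 83.3 and 636 CPM, B cells to 199 and 631 CPM and endothelial cells to 32.0 and 196 CPM. NK cell markers summed to 0 and 71.7 CPM and Kupffer markers to 0 and 28.7 CPM. Higher in Crtc2+/+ were the markers of neutrophils (795 and 67.0 CPM), cholangiocytes (2781 and 1306 CPM) and macrophages (404 and 287 CPM). So were those of plasmacytoid dendritic cells (564 and 344 CPM) and T cells (32.0 and 28.7 CPM). In the Crtc2+/+ cells 4 of 6 monocyte markers (Ly6c2, Chil3, F13a1 and Vcan), 5 of 6 endothelial markers and all 6 Kupffer markers were at 0. The part of these differences in the result was not tested. In cells with at most 10% mitochondrial UMIs (43 and 58 cells) the log2 ratio was -4.76 for Gsta1, -2.60 for Gstm1 and -2.74 for Srxn1. In cells with at least 2000 UMIs (29 and 33 cells) it was -6.09 for Gsta1 and -3.56 for Gstm1. In cells with at least 1% of UMIs from Alb, Apoa1 and Ttr (68 and 52 cells) some folds were smaller than over the whole class. Gsta1 was 24.8-fold, Gsta3 2.21-fold, Gstm1 4.35-fold and Gclc 4.25-fold lower there. The log2 ratio of Txnrd1 was -1.41 there and -1.40 over the whole class. Calls were lost for Txnrd1 with cells of several lineages kept (-0.63), for Srxn1 (-0.92) and Txnrd1 (-0.89) by means of per-cell CPM, for Gsta3 (-0.91) with at least 100 UMIs of Alb, Apoa1 and Ttr, and for Nqo1 (-0.87) where these 3 genes made up at least 1% of a cell's UMIs.

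Among keratin-high hepatocytes 2 of the 10 genes, Gsta1 and Gsta2, were at least 2-fold lower in the Crtc2-/- library and none was at least 2-fold higher. The share over all 11131 measured genes was 6.18% lower and 4.5% higher, and the median log2 ratio was 0.03 for the 10 genes against -0.11 for all. Gsta1 stood at 395 CPM (366 to 426) and 137 CPM (122 to 154), 2.87-fold lower, and Gsta2 at 275 and 29.4 CPM, 9.33-fold lower (7.18 to 12.3). Gstm1, at 4858 CPM (4755 to 4962) and 3360.1 CPM (3283 to 3438), was 1.45-fold lower. The other 7 genes lay within 1.25-fold of each other between the libraries: Gsta3 had 983 and 940.0 CPM, Gsta4 187 and 222 CPM, and Gclc 393 and 489 CPM. Gclm had 334 and 386 CPM, Txnrd1 125 and 142 CPM, Srxn1 63.7 and 56.5 CPM, and Nqo1 21.6 and 24.4 CPM.

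The keratin-high class held cells of unlike kind, in unlike proportions. The biliary markers Krt19, Krt7, Epcam, Sox9 and Spp1 summed to 39821 CPM in its Crtc2+/+ cells and 8580 CPM in its Crtc2-/- cells, and 8 hepatocyte markers to 16582 and 37745 CPM. Alb, Apoa1 and Ttr made up under 1% of the UMIs in 115 of 165 Crtc2+/+ cells and in 50 of 140 Crtc2-/- cells. In those cells Spp1 stood at 45779 and 12769 CPM, Epcam at 390.3 and 262 CPM and Sox9 at 527 and 258 CPM, which goes against the name hepatocyte for them. They are called keratin-high cells poor in hepatocyte transcripts below.

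In hepatocytes with at least 1% of UMIs from Alb, Apoa1 and Ttr, 8 of the 10 genes were at least 2-fold lower in Crtc2-/- on each side of the keratin limit. They were not the same 8. Beside Gclm, the gene short of a call was Nqo1 (log2 ratio -0.87) in keratin-low and Txnrd1 (-0.93) in keratin-high cells. In keratin-low cells of this kind (68 and 52 cells) 1 gene was at least 2-fold higher: Gclm, with 166 and 350.0 CPM, a ratio of 2.10 (1.24 to 3.66). There 15.3% of the 1613 measured genes were at least 2-fold lower and 13.8% at least 2-fold higher, and the medians were -1.88 for the 10 genes and -0.09 for all. In the 50 Crtc2+/+ and 90 Crtc2-/- keratin-high cells none of the 10 was at least 2-fold higher. Of the 7981 genes measured in them 5.44% were at least 2-fold lower and 13.9% at least 2-fold higher, and the medians were -1.28 for the 10 genes and 0.18 for all. Gsta1 had 1708 CPM in Crtc2+/+ and 119.9 CPM in Crtc2-/- cells, 14.2-fold lower (11.9 to 17.1), and Gsta2 had 1072 and 28.1 CPM, 38.1-fold lower (27.2 to 54.9). Gstm1 had 16359 and 3848 CPM, 4.25-fold lower (4.09 to 4.42). Both alpha class near copies and Gstm1 were thus far lower in the Crtc2-/- library on either side of the keratin limit.

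In the same keratin-high cells Gsta3 had 2681 and 1093 CPM, 2.45-fold lower, and Gsta4 416 and 187 CPM. Srxn1 had 282 and 68.1 CPM, 4.14-fold lower (3.03 to 5.63), Gclc 959 and 424 CPM, 2.26-fold lower (1.96 to 2.62), and Nqo1 96.2 and 34.1 CPM. Txnrd1 fell just short of a call, with 268 and 135 CPM and a log2 ratio of -0.93. Gclm was not 2-fold lower, with 388 and 378 CPM and a ratio of 0.972 (0.791 to 1.20). Krt19 was at 0 in these cells of both libraries. Their median depths were 3916 and 14187 UMIs and their mitochondrial shares 3.74% and 1.10%, and Afp, a fetal liver gene raised in liver tumours, stood at 44.7 and 370.2 CPM. The part of these differences in the result was not tested.

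In keratin-high cells poor in hepatocyte transcripts (115 and 50 cells) the transferases other than Gsta2 were not lower in the Crtc2-/- library by summed CPM. Of 9 measured genes 1 was at least 2-fold lower and 1 at least 2-fold higher, where the share of all 10093 measured genes was 6.47% lower and 5.09% higher. Gsta1 had 135 and 166 CPM, Gsta3 647 and 689.7 CPM, and Gstm1 2579 and 2561 CPM, a ratio of 0.993 (0.941 to 1.05). The median cell was lower in Crtc2-/- for Gstm1 (1025 and 527 CPM) and Gsta3 (477 and 331 CPM). For Gsta4 it was higher (88.9 and 127 CPM). Levels of at least 10000 CPM of Gstm1 were reached by 6 of 115 and 5 of 50 cells. Gsta1 UMIs were found in 12 of 115 and 15 of 50 cells. Gsta2 was 3.70-fold lower (2.44 to 5.82), from 116 to 31.5 CPM. Gclc was 2.13-fold higher (1.86 to 2.43), with 281 and 596 CPM, opposite in direction to the hepatocytes above. Gsta4, with 142 and 280.0 CPM and a ratio of 1.98 (1.63 to 2.40), Srxn1, with a ratio of 1.84 (1.08 to 3.14), and Txnrd1, with a ratio of 1.58 (1.23 to 2.02), were also higher here and lower in those hepatocytes. The difference in direction was not tested.

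**Figure D2:**
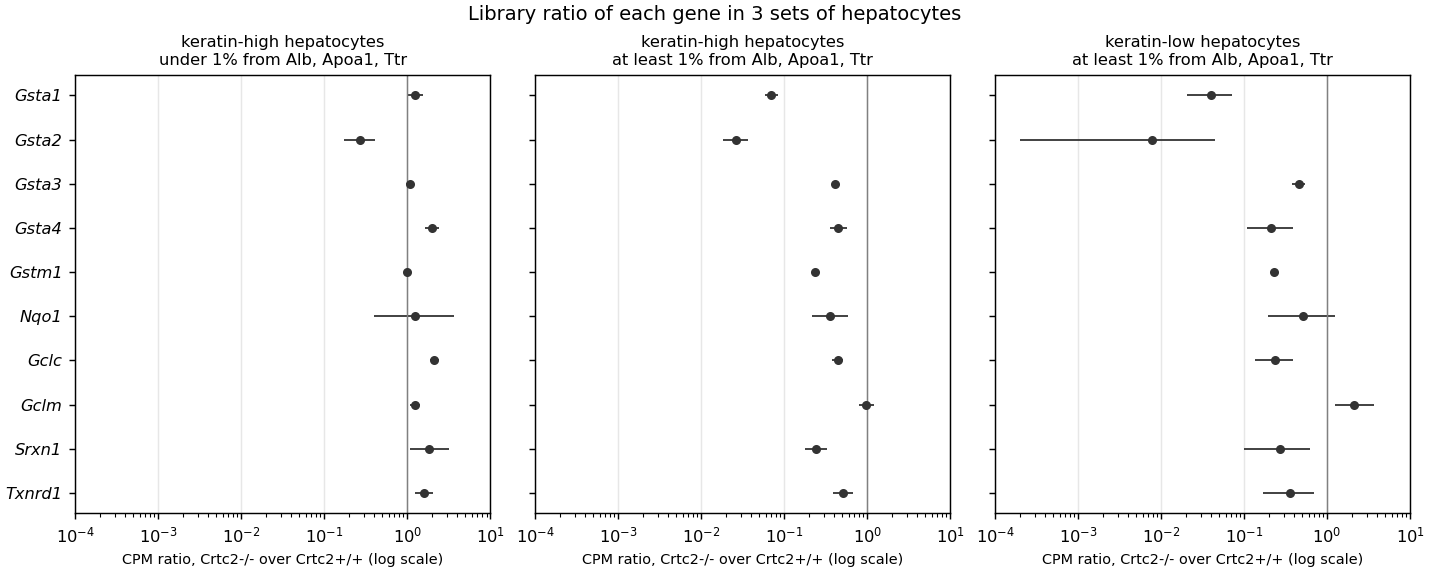
Ratio of CPM, Crtc2-/- over Crtc2+/+ (log axis), for the 10 genes in 3 groups of cells split by keratin UMIs and by the share of UMIs from Alb, Apoa1 and Ttr, with exact 95% intervals of counting error. In both groups with at least 1% of such UMIs the transferases lie well to the left of 1, while Gclm does not, and in keratin-high cells under 1% Gstm1 lies at 0.993.

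Cells of one library varied widely, and the libraries overlapped cell by cell. Among keratin-high hepatocytes with at least 1% of UMIs from Alb, Apoa1 and Ttr, the median cell had 18801 CPM of Gstm1 in Crtc2+/+ (quartiles 7488 and 30177, highest 53734) and 1517 CPM in Crtc2-/- (quartiles 801 and 7124, highest 39147). Levels of at least 10000 CPM were reached by 33 of 50 Crtc2+/+ cells and 15 of 90 Crtc2-/- cells, so Gstm1-rich cells were present in both libraries. Gsta1 UMIs were found in 40 of 50 and 23 of 90 such cells, with medians of 1522 and 0 CPM, although the Crtc2-/- cells were deeper. For Gsta3 the medians were 3383 and 646 CPM, and for Gclm 399 and 357 CPM. Keratin-low cells at the same share had Gstm1 medians of 16399 and 3458 CPM, with 44 of 68 and 13 of 52 cells at 10000 CPM or more.

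**Figure D3:**
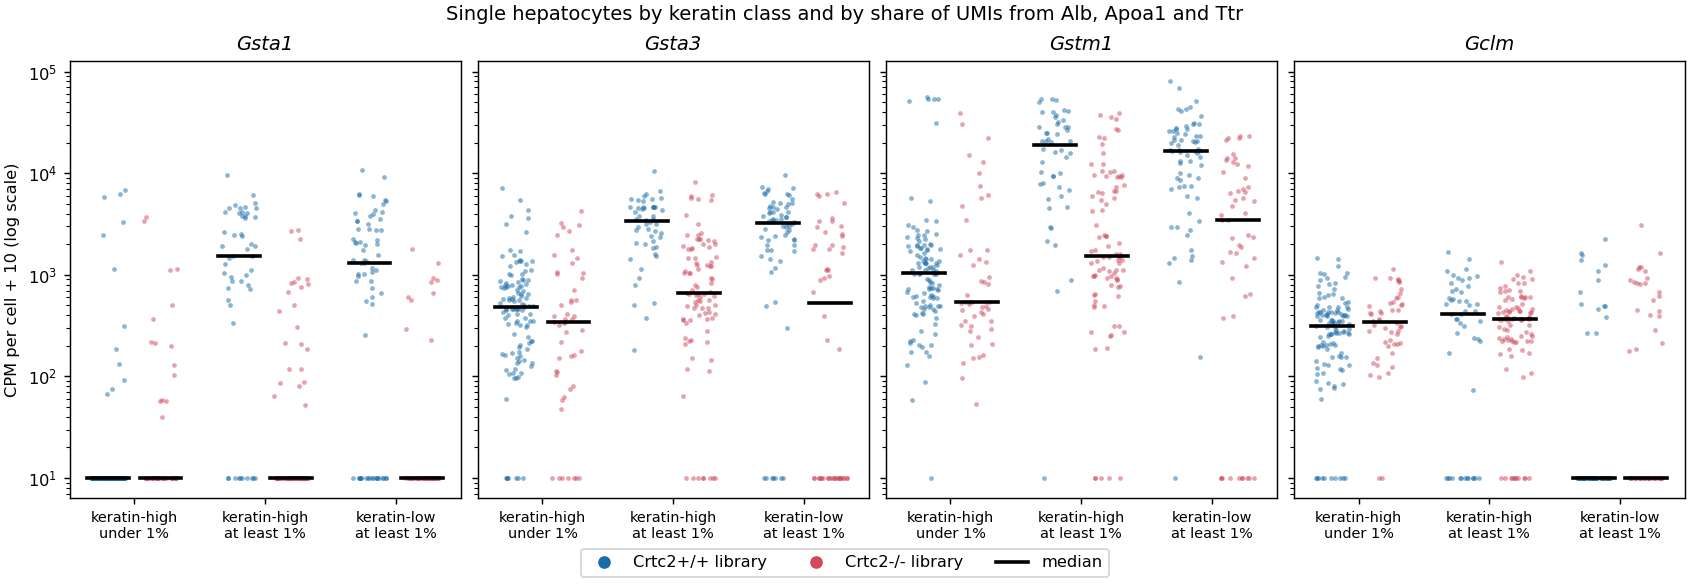
Level in each cell (CPM + 10, log axis) of Gsta1, Gsta3, Gstm1 and Gclm, for keratin-high and keratin-low hepatocytes with at least 1% of UMIs from Alb, Apoa1 and Ttr and for keratin-high cells under 1%, with a black line at each median. Gstm1 medians of 18801 and 1517 CPM stand apart in keratin-high cells of at least 1%, while Gclm medians of 399 and 357 CPM lie side by side.

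Within single hepatocytes thinned to 1000 UMIs, Gsta1, Gsta2, Gsta3 and Gstm1 varied together in the Crtc2+/+ library. Over 220 Crtc2+/+ hepatocytes Spearman's rho was 0.74 between Gsta1 and Gstm1, 0.67 between Gsta3 and Gstm1 and 0.65 between Gsta2 and Gstm1. It was 0.62 between Gsta1 and Gsta2, 0.55 between Gsta1 and Gsta3 and 0.47 between Gsta2 and Gsta3. Gsta4 had lower values, 0.22 with Gsta3, 0.28 with Gsta1 and 0.31 with each of Gsta2 and Gstm1, and Gsta1 with Gclc had 0.30. The pairs Gstm1 with Gclm and Gclc with Gclm had values of 0.01 and 0.09. After thinning, these 220 cells held 64 UMIs of Gsta4, 63 of Gclm and 122 of Gclc, against 2609 of Gstm1 and 442 of Gsta3. The part of such low counts in the lower values was not tested. Over 196 Crtc2-/- hepatocytes rho was 0.46 for Gsta3 with Gstm1 and 0.23 for Gstm1 with Gclm. Pairs with Gsta1, Gsta2 or Gsta4 were not computed there, since each gene needed at least 50 thinned UMIs. For Gsta3 with Gstm1 in keratin-high cells alone, rho was 0.61 in Crtc2+/+ and 0.34 in Crtc2-/-. In keratin-low cells it was 0.47 and 0.67. In the 55 Crtc2+/+ keratin-low cells alone, rho was 0.55 for Gsta1 with Gstm1 and 0.63 for Gsta2 with Gstm1. For Gsta1 with Gsta2 it was 0.43, for Gsta2 with Gsta3 0.34 and for Gsta1 with Gsta3 0.25. These values describe cells that share a library and a depth, and rest on the mixture of cells in each class.

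Within the Crtc2+/+ library 8 of the 10 genes were at least 2-fold lower in keratin-high than in keratin-low hepatocytes, where 4.77% of all 9452 measured genes were at least 2-fold lower and 41.0% at least 2-fold higher. The median log2 ratio of keratin-high over keratin-low was -1.62 for the 10 genes and 0.75 for all. It was -2.47 for Gsta1, -2.16 for Gstm1 and -1.99 for Nqo1, and 0.96 for Gclm. In the Crtc2-/- library none was at least 2-fold lower and 4 were at least 2-fold higher, against 7.52% lower and 17.8% higher over all 9527 measured genes. There Gclc had a log2 ratio of 2.18, Gsta4 of 1.59, Gsta2 of 1.41 and Gsta1 of 1.03, with a median of 0.70 for the 10 genes and 0.25 for all. Most of these calls ended when hepatocytes with under 1% of UMIs from Alb, Apoa1 and Ttr were left out. None of the 8 genes was then at least 2-fold lower in the Crtc2+/+ library: Gsta1 had -0.54, Gsta3 -0.36, Gsta4 -0.30, Gstm1 -0.47 and Nqo1 -0.40, while Gsta2 (0.022), Gclc (0.50) and Srxn1 (0.36) turned their sign. Gclm, at 1.18, was then past 2-fold higher, and the median of the 10 genes was -0.18. In the Crtc2-/- library Gsta2 (1.06) and Gclc (1.36) were still past 2-fold higher, Gsta1 (0.24) and Gsta4 (0.74) were not, and the median was 0.22. By means of per-cell CPM over all hepatocytes, calls were lost for Gsta2, Gsta4, Gclc and Srxn1 in Crtc2+/+. In Crtc2-/- they were lost for Gsta1 (0.53) and Gsta2 (0.72). The keratin limit took no account of depth. Median depths of keratin-high and keratin-low hepatocytes were 9838 and 1724 UMIs in Crtc2+/+, and 14534 and 2282 UMIs in Crtc2-/-. With a limit of 2 keratin UMIs per 10000, only 29 Crtc2+/+ and 28 Crtc2-/- cells were keratin-low. The medians of the 10 genes were then -1.12 and 2.05. The part of depth in this contrast was not tested.

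Other genes of the pathway were read from lists, which were also chosen with earlier results of these data known. In keratin-low hepatocytes 10 of 14 measured further transferases were at least 2-fold lower in the Crtc2-/- library and none was higher, among them Mgst3, a microsomal transferase (654 and 19.1 CPM), Gstm3 (910.0 and 52.6 CPM) and Gstp2 (506 and 52.6 CPM). Of 20 measured further NRF2 targets 13 were lower and none higher, led by Cyp2a5, a cytochrome P450 (1730.2 and 62.2 CPM), the carbonyl reductase Cbr3 (737 and 95.7 CPM) and the epoxide hydrolase Ephx1 (282 and 57.4 CPM). None of the 3 measured regulators was lower: Nfe2l2 had 128 and 148 CPM, Cul3 64.1 and 90.9 CPM, and Bach1 12.8 CPM from 2 UMIs and 86.1 CPM. Of 5 measured genes of glutathione synthesis and use 2 were lower, Gpx4 (2128 and 708 CPM) and Gss (115 and 33.5 CPM).

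Of 8 pericentral and 8 periportal genes of the liver lobule, 3 and 4 were measured in keratin-low hepatocytes. The pericentral genes Lect2 and Cyp2e1 had 0 UMIs in keratin-low Crtc2+/+ hepatocytes and were at least 5.22-fold and 4.98-fold higher in Crtc2-/- cells, against 3 UMIs in the Crtc2+/+ class, and Rgn had 25.6 and 325 CPM. The periportal gene Cyp2f2 had 263 and 19.1 CPM, Ass1 160.2 and 273 CPM and Arg1 442 and 469 CPM. All 3 measured pericentral genes were thus at least 2-fold higher in keratin-low Crtc2-/- cells, as were 31.3% of all measured genes. Of 4 periportal genes 1 was lower there and none was at least 2-fold higher. In keratin-high hepatocytes 3 of 6 pericentral and 5 of 8 periportal genes were at least 2-fold higher, and none was at least 2-fold lower. In all hepatocytes with at least 1% of UMIs from Alb, Apoa1 and Ttr, 4 of 6 pericentral genes were higher. Of 8 periportal genes 3 were higher there and 1 lower. In keratin-high cells of that share the periportal counts were 1 and 1.

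In keratin-high hepatocytes the lists of further transferases and further NRF2 targets moved less as whole lists. Their medians were -0.22 over 18 transferases and -0.01 over 27 NRF2 targets. Of the transferases 3 were lower and 2 higher, with Gstz1, which acts in tyrosine breakdown, at 64.8 and 227 CPM and Gstm5 at 184 and 60.7 CPM. Of the NRF2 targets 3 were lower and 3 higher: the glutathione peroxidase Gpx2 had 109 and 4.60 CPM, Cyp2a5 244 and 83.2 CPM, and the cystine transporter Slc7a11 11.4 and 56.1 CPM. Ggt1, which cleaves extracellular glutathione, had 40.9 CPM and 0.919 CPM, the latter from 2 UMIs. Over all hepatocytes with at least 1% of UMIs from Alb, Apoa1 and Ttr, 10 of 17 further transferases were lower and 2 higher (median -1.23), and 12 of 25 further NRF2 targets were lower and 2 higher (median -0.75). In these cells 8 of the 10 genes were lower, against 4.84% of all 8298 measured genes, of which 15.5% were higher. None of the 8 regulators was at least 2-fold lower there and 2 were higher, with a median of 0.52 beside 0.28 for all genes.

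Outside hepatocytes, transferase UMIs were set beside the level that free hepatocyte RNA would give, estimated from 9 secreted hepatocyte proteins' transcripts in the same cells. In other macrophages Gsta1 stood at 1.19 and 0.928 times that level (Crtc2+/+ and Crtc2-/-), and Gsta3 at 1.49 and 0.487 times. In T cells Gsta3 stood at 1.14 times it in both libraries and Gstm1 at 0.828 and 1.38 times. Such values are read as background and not as expression. Gstm1 lay above the estimate in monocytes, at 4.59 and 8.69 times, in endothelial cells, at 5.17 and 3.71 times, and in other macrophages, at 2.79 and 2.13 times. Gclc, Gclm and Txnrd1 lay at least 12.5 times above it in each of the 5 classes, so their counts there were not accounted for by free RNA of this amount. The estimate took all hepatocytes of a library as its source. In Crtc2+/+ 120 of these 238 cells had under 1% of UMIs from Alb, Apoa1 and Ttr. Gstm1 stood at 2717 CPM in them and at 18407 CPM in the rest. How far the multiples depend on this source was not tested.

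**Figure D4:**
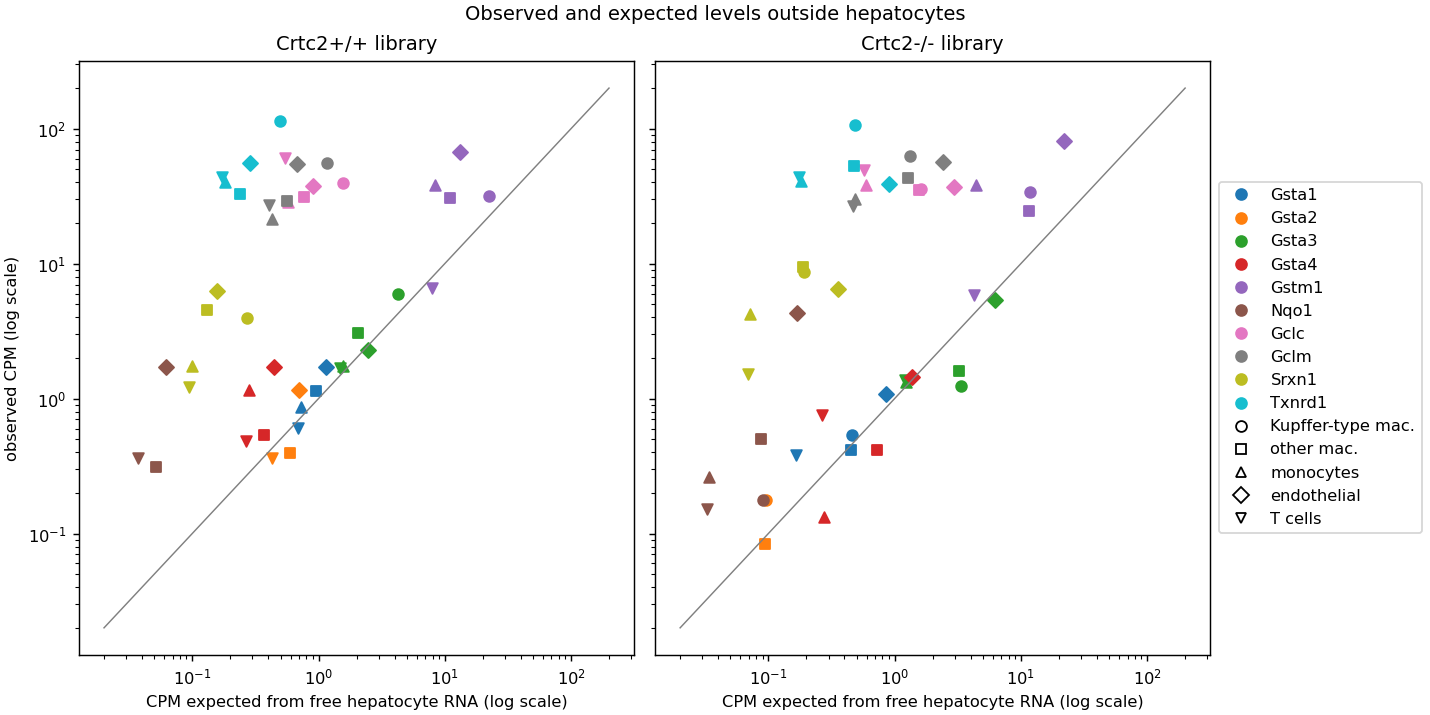
Observed CPM against the CPM expected from free hepatocyte RNA (both log axes) for the 10 genes in the 5 classes other than hepatocytes, both libraries, with a line where the 2 are equal and genes without a UMI in a class left out. Gsta1, Gsta2 and Gsta3 scatter about the line, whereas Gclc, Gclm and Txnrd1 lie at least 12.5 times above it.

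In macrophages below the Kupffer limit Txnrd1, Gclm and Srxn1 were higher in the Crtc2-/- library, though none of the 10 genes passed 2-fold on log2(CPM + 10). Txnrd1 had 33.0 CPM (31.3 to 34.6) and 52.7 CPM (48.7 to 57.0), a ratio of 1.60 (1.46 to 1.76). Gclm had 29.0 CPM (27.5 to 30.6) and 43.3 CPM (39.6 to 47.2), a ratio of 1.49 (1.34 to 1.65). Srxn1 had 4.55 CPM (3.97 to 5.20) and 9.44 CPM (7.78 to 11.4), a ratio of 2.07 (1.64 to 2.61), and a log2 ratio of 0.42 once 10 CPM was added. The intervals of the 2 libraries lay apart for these 3 genes. For the catalytic subunit Gclc they met, with 31.1 and 35.2 CPM and a ratio of 1.13 (1.01 to 1.26).

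In these macrophages 2.59% of all 13931 measured genes were at least 2-fold higher and 2.02% at least 2-fold lower. Gstm1 had 30.7 and 24.5 CPM, a ratio of 0.797 (0.701 to 0.904). Of 24 measured further NRF2 targets 3 were at least 2-fold higher and none lower: Hmox1, which breaks down haem (88.2 and 328 CPM), the glutathione reductase Gsr (35.5 and 139 CPM) and thioredoxin Txn1 (295 and 744 CPM). Ggct, of the glutathione cycle, had 9.85 and 41.0 CPM, and the repressor Bach1 82.1 and 138 CPM. The macrophages of the 2 libraries differed in number, with 4837 and 1076 cells, and the 6 Kupffer markers summed to 4.28 and 26.7 CPM in them. Endothelial markers summed to 27.3 and 288 CPM, neutrophil markers to 108 and 307 CPM, monocyte markers to 451 and 692 CPM, hepatocyte markers to 47.4 and 180.2 CPM, B cell markers to 31.4 and 102 CPM and plasmacytoid dendritic markers to 1012 and 232 CPM. The part of these differences in the result was not tested.

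Kupffer-type macrophages carried more Txnrd1 than other macrophages in both libraries. Txnrd1 had 115 CPM (87.2 to 149) in 32 Crtc2+/+ and 107 CPM (98.2 to 115) in 397 Crtc2-/- Kupffer-type cells, 3.49 times (2.64 to 4.53) and 2.02 times (1.80 to 2.26) the level of other macrophages of the same library. Gclm had 55.5 and 62.9 CPM, 1.91 times (1.26 to 2.77) and 1.45 times (1.27 to 1.67) that of other macrophages. For Gclc, with 39.6 and 35.7 CPM, the ratios of 1.27 and 1.02 had intervals that span 1. Txnrd1 was the 1 gene of 8 measured to pass 2-fold in the Crtc2+/+ library, where 3.55% of 13381 genes were higher and 2.97% lower. In the Crtc2-/- library none of 6 passed, against 1.57% higher and 0.627% lower of 12123.

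Between the libraries, none of the 5 genes measured in Kupffer-type cells passed 2-fold, against 2.21% of 10473 genes higher and 1.34% lower. Gstm1 had 31.7 and 34.1 CPM and Srxn1 3.96 CPM, from 2 UMIs, and 8.71 CPM, a ratio of 2.20 (0.577 to 18.7). The intervals of all 5 ratios spanned 1, and the 32 Crtc2+/+ cells limit what could be detected. Hmox1 was higher in the Crtc2-/- library here as well, with 309 and 661 CPM.

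**Figure D5:**
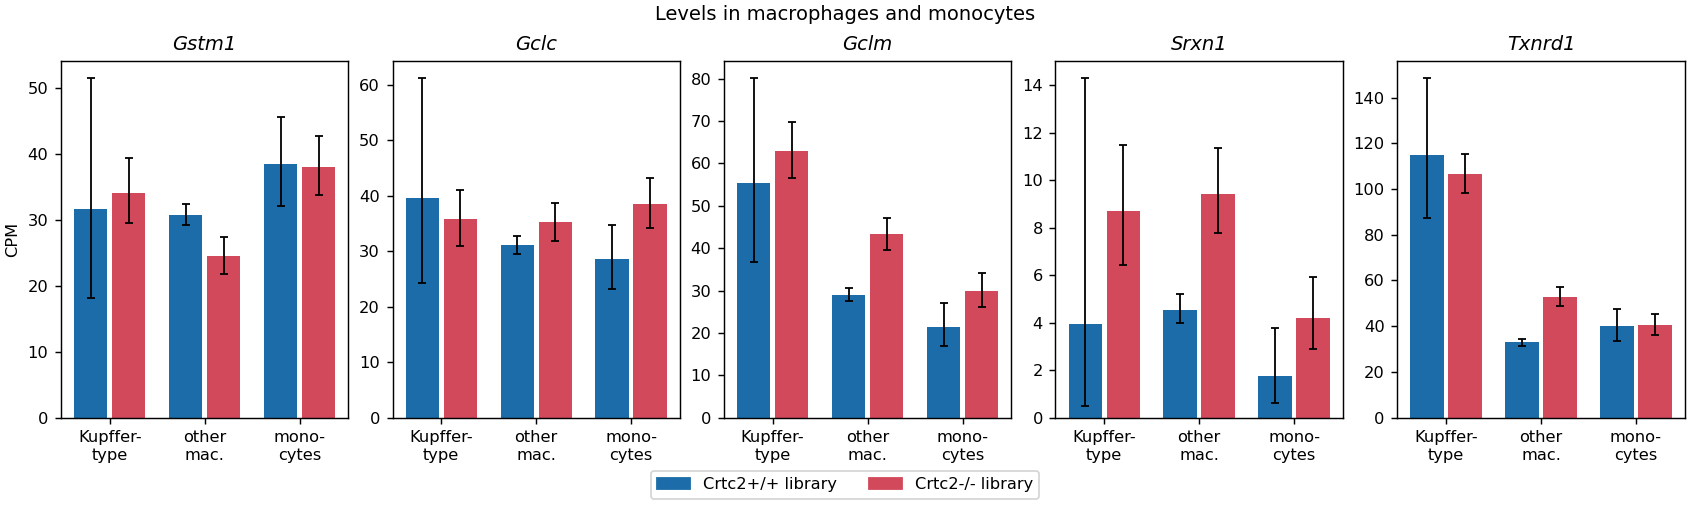
Level (CPM, bars from 0, with exact 95% Poisson intervals) of Gstm1, Gclc, Gclm, Srxn1 and Txnrd1 in Kupffer-type macrophages, other macrophages and monocytes of the Crtc2+/+ and Crtc2-/- libraries. Txnrd1 stands at 115 and 107 CPM in Kupffer-type cells and at 33.0 and 52.7 CPM in other macrophages.

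In monocytes, endothelial cells and T cells no measured gene of the 10 passed 2-fold between the libraries. In monocytes none of 5 measured genes passed 2-fold (0.488% of 11487 genes were higher and 0.531% lower). Gclc had 28.5 and 38.4 CPM, a ratio of 1.35 (1.07 to 1.71), and 33.9 CPM in Crtc2-/- without 1 cell of 35 UMIs. Gclm had 21.5 and 30.0 CPM, a ratio of 1.39 (1.07 to 1.84), and Gstm1 38.4 and 38.0 CPM. At least 2 UMIs of plasmacytoid dendritic markers were held by 52 of 377 Crtc2+/+ and 197 of 720 Crtc2-/- monocytes, and their part in these values was not tested.

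In endothelial cells none of 7 measured genes passed 2-fold (1.69% of 11485 higher, 2.66% lower). The interval of the ratio excluded 1 for Txnrd1 alone of the 7, with 55.7 and 39.0 CPM and a ratio of 0.700 (0.548 to 0.898), lower in Crtc2-/- where it was higher in other macrophages; the difference between the classes was not tested. Gstm1 had 67.7 and 81.2 CPM and Gclm 54.5 and 57.0 CPM. Among further NRF2 targets Akr1b8, an aldo-keto reductase, had 24.1 and 120.5 CPM.

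T cells had none of 6 measured genes past 2-fold (0.524% of 12787 higher, 0.555% lower). Gclc had 60.2 CPM (55.1 to 65.8) and 49.3 CPM (45.6 to 53.2), a ratio of 0.818 (0.727 to 0.921). Gclm had 27.0 CPM in both libraries, and Txnrd1 had 43.8 CPM (39.4 to 48.5) and 44.0 CPM (40.5 to 47.7), with intervals that overlap.

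The genes most alike in pattern were taken by Pearson's r of log2(CPM + 10) over 14 values, 7 classes in each of the 2 libraries, among 7246 genes with at least 50 CPM in some class. For Gsta1 these were Cyp2a5 (0.998), Fndc4 and Iyd, and for Gsta2 Apela, Wfdc2 and Ugt3a2. For Gsta3 they were Bhmt (0.999), Rarres2 and Gc, and for Gstm1 the nearest were Atf5 (0.989) and Hint2. Nqo1 was most like Acsm1, Hrg and Cyp2a12, Gclc like Vnn1, F13b and Pla1a, and Srxn1 like Gjb2, Ugt2b34 and Gstp2. Gclm (Spag7, 0.971, then Osgin1 and Tst) and Txnrd1 (Cd1d1, 0.942, then Sdhc and Acot1) had the lowest values for their nearest gene. The 14 values share 2 libraries, and a gene high in hepatocytes alone reaches a high r by that contrast.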

How the data were processed

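The authors deposited a matrix of raw UMI counts for each library, and per the file headers Cell Ranger 7.1.0 made it. The submitters' processing notes name mm10 and Seurat, and the sources used here do not say what Seurat did or whether intronic reads were counted. A 10x 3' kit was used, per the labels' protocols. The smallest barcodes held 502 and 501 UMIs, so empty droplets could not be read.

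Barcodes were kept with at least 500 UMIs, 250 genes and at most 20% mitochondrial UMIs (9612 and 9174). Scrublet (scanpy 1.11.5, expected 0.8% per 1000 cells) called 263 (2.74%) and 273 (2.98%) doublets, below the expected 7.69% and 7.34%. These were removed, and missed doublets remain. Counts were summed per class and library as CPM with exact Poisson intervals. Log2 ratios add 10 CPM, and a gene counted as measured with at least 20 UMIs over both groups compared. Ratios carry the exact conditional interval of 2 Poisson sums. Expected free RNA of a gene was its hepatocyte CPM times the share of 9 hepatocyte genes (Apoa2, Apoh, Ahsg, Gc, Fga, Fgb, Fgg, Ambp, Serpina1c) found in the class. The ratio code was tested on simulated data. Of the features, 32158 matched GENCODE M21 identifiers. Tools were Biopython 1.88, matplotlib 3.10.9, pandas 2.3.3, scipy 1.17.1 and numpy 2.4.6 under Python 3.11.15.

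The members, the lists (further transferases, NRF2 targets, regulators, glutathione synthesis and use, pericentral and periportal genes) and the class rules were chosen with earlier results of these data known. All 10 members are named, with at most the 3 largest log2 ratios per list and contrast. The split at 1% of UMIs from Alb, Apoa1 and Ttr began as an alternative setting. Alternatives also changed the doublet, mitochondrial, keratin, Kupffer, depth, biliary, pseudocount, free RNA and lineage rules. Some of the genes most alike in pattern, those of Gsta4 among them, are not reported here.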

Additional observations from a re-analysis of the deposited data

Results flagged for a closer look

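Of the 10 genes 4 had opposite directions in the 2 libraries when keratin-high hepatocytes were set over keratin-low ones, each past 2-fold in both. Of all 8630 genes measured in both libraries, 193 or 2.24% did so. The log2 ratio of Gsta1 was -2.47 in the Crtc2+/+ and 1.03 in the Crtc2-/- library. It was -1.86 and 1.41 for Gsta2, -1.32 and 1.59 for Gsta4, and -1.11 and 2.18 for Gclc. The keratin-low Crtc2-/- levels of Gsta1 and Gsta2 rested on 13 and 1 UMIs. By means of per-cell CPM none of the 4 was past 2-fold in both libraries, though all kept their signs. Gsta1 had 0.53 and Gsta2 0.72 in Crtc2-/-, and Gsta2 had -0.88, Gsta4 -0.40 and Gclc -0.31 in Crtc2+/+. The difference between the libraries was not tested, since each is 1 sample. Beside it stand the biliary markers of keratin-high cells, 39821 and 8580 CPM in sum, and their cells with under 1% of UMIs from Alb, Apoa1 and Ttr, 115 of 165 and 50 of 140. In hepatocytes with at least 1% of such UMIs none of the 4 was past 2-fold in opposite directions: Gsta1 had -0.54 and 0.24, Gsta2 0.022 and 1.06, Gsta4 -0.30 and 0.74, and Gclc 0.50 and 1.36. The part of these in the result was not tested.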

How the results depend on the processing

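No paired analysis was possible because each genotype had 1 library. Of 253 member results past 2-fold and recomputed under another setting, 215 stayed past 2-fold in the same direction and 248 kept their sign. This total leaves out results no longer measured under a setting. It also holds settings that could not lose a call, as with members of at least 1 UMI (24 of 24). The share that stayed was lowest at 1% of UMIs from Alb, Apoa1 and Ttr (12 of 23) and at 100 such UMIs (13 of 21). Next came per-cell means (16 of 24) and cells of several lineages kept (17 of 24). Medians of the members moved as follows, and the cause was not tested. Crtc2-/- over Crtc2+/+ in keratin-high hepatocytes, 0.03, became -0.93 with at least 100 UMIs of Alb, Apoa1 and Ttr and -1.28 with at least 1%. In keratin-low hepatocytes, -2.47, it became -1.48 by means of per-cell CPM, -4.03 with a keratin limit per 10000 UMIs and -3.22 with at least 2000 UMIs per cell, a setting chosen after seeing the data. In monocytes, 0.28, it became 0.016 over members with at least 1 UMI, and in other macrophages, 0.00, it became 0.11 with cells of several lineages kept. Keratin-high over keratin-low in Crtc2+/+, -1.62, became -0.55 with those cells kept, -0.74 by per-cell means, -0.32 at 100 UMIs, -0.18 at 1% and -1.12 with the keratin limit per 10000 UMIs; in Crtc2-/-, 0.70, it became 2.05 under the latter. Kupffer-type over other macrophages in Crtc2-/- became -0.036 with cells of several lineages kept. Within Crtc2+/+, keratin-high over keratin-low turned its sign at 100 UMIs for Gclc (1.56) and Srxn1 (0.072) and at 1% for Gsta2 (0.022), Gclc (0.50) and Srxn1 (0.36). Txnrd1 in keratin-low hepatocytes, -1.40, was -0.63 with cells of several lineages kept. Depth limits the keratin-low Crtc2-/- levels of Gsta2, Srxn1 and Nqo1, which rest on 1, 7 and 8 UMIs.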
